A study of Mus musculus with 12 samples.

Results

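The genes described here build and control the machinery that moves chromosomes in mitosis. They are 42 mouse genes chosen by symbol from the 24421 genes in the count tables, and all 42 were found there. By role they were 8 proteins of the inner kinetochore, 10 of the outer kinetochore, 6 of the spindle checkpoint, 3 mitotic kinases, 8 spindle motors and 7 other spindle-associated proteins. Expression was measured by RNA-seq in 12 libraries of cardiomyocytes from the hearts of CD1 mice at postnatal day 1. There were 4 libraries of Glut1 transgenic Tnnt2low, 4 of Glut1 transgenic Tnnt2high, 2 of WT Tnnt2low and 2 of WT Tnnt2high cardiomyocytes. Glut1 transgenic hearts carried αMHC-hGLUT1, which places human GLUT1 under the promoter of a cardiomyocyte myosin gene, together with αMHC-Cre and a Rosa26 YFP reporter. By the study's methods WT hearts carried αMHC-Cre and the reporter as well, so the driver and the reporter are shared by all groups. Cells were sorted as YFP-positive and by the Mitotracker dye, and the labels name the populations by that signal alone. The study's text equates high Mitotracker with Tnnt2low and low Mitotracker with Tnnt2high cells, and these names are used here. Each Glut1 transgenic heart gave 1 library of each population. The labels of the WT libraries pair in the same way but share 1 heart number, so the WT replicates may come from a single heart. Their spread may then be technical only. All 12 libraries were fitted together with 1 shared estimate of the spread, so the WT replicates enter the p-values of every comparison in that fit.

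A kinetochore is the protein assembly that forms on each centromere and holds spindle microtubules. Its inner layer sits on nucleosomes that contain the histone variant encoded by Cenpa, and its outer layer carries the Ndc80 complex, which binds the microtubule end. Checkpoint proteins delay anaphase until every kinetochore is attached, and motors and crosslinking proteins shape the bipolar spindle. Cardiomyocytes of the newborn mouse still enter the cell cycle, and most stop dividing during the first days of life. In dividing cells many of these genes are transcribed mainly in G2 and mitosis, through promoters that bind the DREAM and B-MYB complexes at a short element called the cell cycle genes homology region and the NF-Y factor at CCAAT boxes.

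The promoters show these letters directly. RefSeq promoters on GRCm38.p6, from 250 bases before to 50 bases after the most upstream start, were found for 39 of the 42 genes, with Spc24, Ska1 and Tpx2 not matched. The element TTTGAA, or TTCAAA on the other strand, was present in 23 of the 39 (59%), and in 18.2% of 27025 promoters of the same length. CCAAT, or ATTGG, was present in 29 of the 39 (74.4%), against 38% of all promoters, and both in 51.3%, against 7.16%. The motifs can share 1 letter where they adjoin, and a match is a description and not a bound site. The 4 windows below are shown because 3 belong to genes that rose in the main comparison and the last to Cenpa, which did not pass the test there, and all 4 carry both motifs, in capitals. Aspm lies at chr1:139454523-139454822, Plk1 at chr7:122159185-122159484, Kif11 at chr19:37376132-37376431 and Cenpa at chr5:30666636-30666935, all on the plus strand.
Aspm: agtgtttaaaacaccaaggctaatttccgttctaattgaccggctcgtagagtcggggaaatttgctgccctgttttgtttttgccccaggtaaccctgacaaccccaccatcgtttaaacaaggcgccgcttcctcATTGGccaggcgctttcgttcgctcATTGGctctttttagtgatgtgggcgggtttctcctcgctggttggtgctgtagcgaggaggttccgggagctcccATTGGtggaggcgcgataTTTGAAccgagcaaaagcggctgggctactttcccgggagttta
Plk1: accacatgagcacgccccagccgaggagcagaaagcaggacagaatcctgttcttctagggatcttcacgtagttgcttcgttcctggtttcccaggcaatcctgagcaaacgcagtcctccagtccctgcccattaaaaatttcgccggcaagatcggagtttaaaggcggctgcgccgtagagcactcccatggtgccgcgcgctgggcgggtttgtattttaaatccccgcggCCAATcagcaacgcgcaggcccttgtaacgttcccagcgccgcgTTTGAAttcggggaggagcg
Kif11: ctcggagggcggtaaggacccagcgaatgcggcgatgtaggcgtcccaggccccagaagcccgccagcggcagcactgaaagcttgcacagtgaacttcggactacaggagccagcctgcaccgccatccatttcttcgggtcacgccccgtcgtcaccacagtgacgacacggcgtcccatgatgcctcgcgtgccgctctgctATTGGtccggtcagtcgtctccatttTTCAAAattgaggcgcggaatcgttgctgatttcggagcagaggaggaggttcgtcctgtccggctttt
Cenpa: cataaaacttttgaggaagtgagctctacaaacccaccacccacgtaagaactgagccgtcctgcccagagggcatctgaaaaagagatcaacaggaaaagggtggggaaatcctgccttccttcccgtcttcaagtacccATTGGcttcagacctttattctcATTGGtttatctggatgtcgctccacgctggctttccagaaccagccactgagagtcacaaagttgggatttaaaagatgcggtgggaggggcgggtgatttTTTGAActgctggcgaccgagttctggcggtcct
Aspm has 3 CCAAT boxes in this window, Cenpa has 2, and Plk1 and Kif11 have 1 each. Of the genes with a promoter that rose in Tnnt2low cells of Glut1 transgenic hearts, 9 of 12 held the TTTGAA element and 11 of 12 a CCAAT box, and of the others 14 of 27 and 18 of 27.

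Reads assigned to genes numbered 7301762 to 9815069 in Glut1 transgenic Tnnt2low and 4065306 to 5241475 in Glut1 transgenic Tnnt2high libraries, and 6399746 to 6803962 in WT Tnnt2low and 4975085 to 7483520 in WT Tnnt2high libraries. Reads with no gene feature numbered 0.886 to 1.07 per gene read in Glut1 transgenic Tnnt2low and 2.26 to 2.63 in Glut1 transgenic Tnnt2high libraries. They numbered 1.13 to 1.495 per gene read in WT Tnnt2low and 1.51 to 1.83 in WT Tnnt2high libraries. Such reads lie outside exons or, if counting was stranded, may also lie inside exons on the other strand. Both libraries of Glut1 transgenic hearts 2 and 4 held reads of the Y-linked gene Ddx3y, and those of the other hearts held at most 4, so the sexes were not matched between genotypes. All 8 cardiomyocyte markers averaged at least 3608 CPM (counts scaled to a common library size) in every group. Between Tnnt2low and Tnnt2high cells of Glut1 transgenic hearts these markers went both ways, with 1 higher and 3 lower past the test and log2 fold changes of -0.91 to 0.61. Tnnt2, which names the populations, was among the lower ones (log2 fold change -0.42 ± 0.09, adjusted p = 0.00723 from edgeR). Msln of the epicardium and the globin genes Hba-a1, Hba-a2, Hbb-bs and Hbb-bt were at 0 reads in all 12 libraries. Reads aligned to more than 1 place, 28.2% to 40.9% of all records, entered no gene count. A count of 0 may therefore not mean absence, and this was not tested. In what follows, levels are CPM after TMM scaling, and a gene rose or fell if edgeR's quasi-likelihood test gave it an adjusted p (Benjamini-Hochberg over 12252 genes) under 0.05. All 42 genes passed the filter on low counts. Fewer cells of a type and less RNA per cell cannot be told apart in such bulk libraries.

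The main comparison set Tnnt2low against Tnnt2high cardiomyocytes of Glut1 transgenic hearts. Of the 42 kinetochore and spindle genes 13 rose and 0 fell, with 8.42% of all genes tested rising and 8.33% falling. The fold change was positive for 37 of 42, with a median log2 fold change of 0.87 over the 42 and -0.01 over all genes. At an unadjusted p under 0.05, 24 were higher and 0 lower, with 15.7% of all genes higher. The 13 that rose were Cenpe, Cenpf, Bub1b, Plk1, Nek2, Kif11, Kifc1, Aspm, Tpx2, Hmmr, Ckap2, Ckap5 and Numa1. Their summed level was not used as a test, but the sum over all 42 genes shows the layout. It was 2129, 2250, 1386 and 1226 CPM in Tnnt2low and 1026, 956, 1071 and 872 CPM in Tnnt2high libraries of Glut1 transgenic hearts 1 to 4. In WT libraries the sum was 1264 and 1705 CPM in Tnnt2low and 1074 and 1696 CPM in Tnnt2high cells. Hearts 1 and 2 gave the highest Tnnt2low sums, and the sums of Glut1 transgenic Tnnt2low and Tnnt2high libraries did not overlap.

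**Figure D1:**
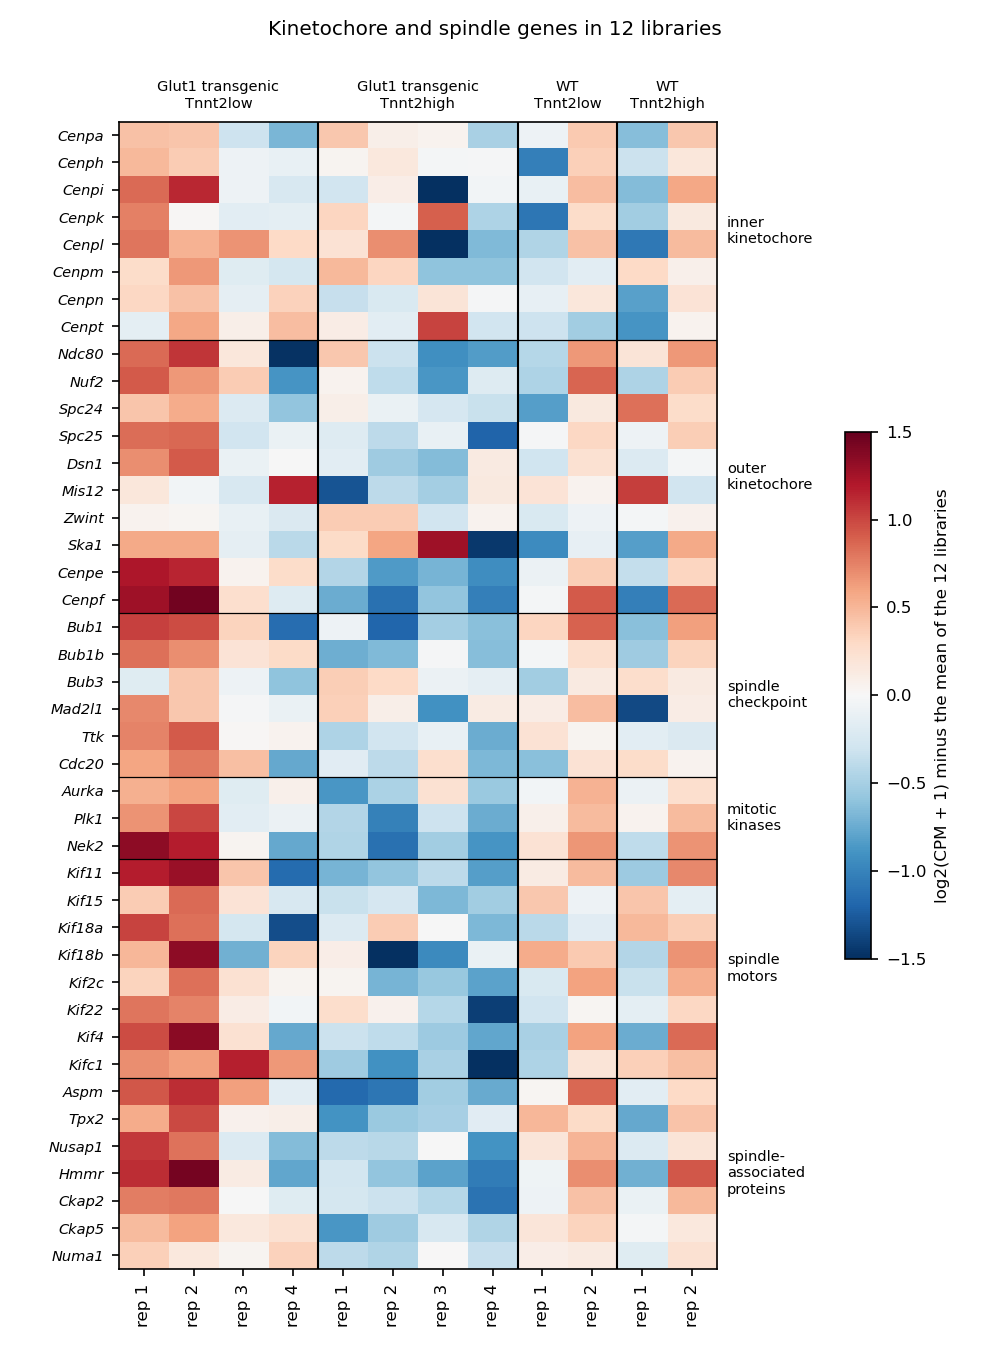
Level of each of the 42 genes (rows, grouped by role) in the 12 libraries (columns, grouped by genotype and population), as log2(CPM + 1) minus the mean of the 12 libraries, with colours capped at 1.5 in either direction. Red is most frequent in Glut1 transgenic Tnnt2low replicates 1 and 2, and the 4 Glut1 transgenic Tnnt2high columns are mostly blue in the lower 3 blocks.

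The call count depended on which libraries entered. Without Tnnt2low replicate 1, Tnnt2low replicate 2, Tnnt2high replicate 1 or Tnnt2high replicate 2 of the Glut1 transgenic hearts, 6, 7, 8 and 6 of the 42 genes rose. The share of all genes that rose fell as well, from 8.42% in the main fit to 4.97%, 5.38%, 4.91% and 5.06%. Cenpe, Cenpf, Bub1b, Kifc1, Aspm and Ckap5 rose in all 12 fits that left out 1 library, and these were 6 of the 13. Without Glut1 transgenic hearts 1 and 2, the pair of highest sums, 0 rose, 4 of all genes passed in either direction, and the median was 0.41. That choice was made after seeing the data. Without hearts 2 and 4, which read Ddx3y, 0 of the 42 and 0 of 11982 genes passed, with a median of 0.80 over the 42.

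Of the inner kinetochore genes 0 of 8 passed the test, with a median log2 fold change of 0.19. Of all genes 8.42% rose and 8.33% fell, so a count of 0 among 8 is near that share. The roles were not tested against each other. Cenpa, the centromeric histone H3 variant that marks where a kinetochore forms, stood at 54.9, 54.3, 32.2 and 24.8 CPM in Glut1 transgenic Tnnt2low, against 53.9, 43, 41.9 and 28.5 CPM in Glut1 transgenic Tnnt2high libraries. Hearts 1 and 2 were higher than hearts 3 and 4 in both populations, and the populations overlapped, with a log2 fold change of -0.01 ± 0.29 and an adjusted p of 0.99. Fold changes are given with their standard error. Cenpm, a subunit of the constitutive centromere network, had 10.8, 14.4, 7.61 and 7.16 CPM in Glut1 transgenic Tnnt2low, against 12.7, 11.2, 5.46 and 5.46 CPM in Glut1 transgenic Tnnt2high libraries. Those ranges also overlapped, with a log2 fold change of 0.20 ± 0.34 and an adjusted p of 0.748. Cenpi, another subunit of that network, was measured at 12.2, 15, 5.96 and 5.24 CPM in Glut1 transgenic Tnnt2low, against 5.04, 6.85, 1.24 and 6.17 CPM in Glut1 transgenic Tnnt2high libraries. This was the inner kinetochore gene of smallest p, and its 2 highest libraries were Tnnt2low of hearts 1 and 2, with a log2 fold change of 1.00 ± 0.50 and an adjusted p of 0.19. The other 5, Cenph, Cenpk, Cenpl, Cenpn and Cenpt, had log2 fold changes of -0.12 to 0.91, and Cenpl, the lowest of them per length, had 0 reads in Glut1 transgenic Tnnt2high replicate 3.

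In the outer kinetochore 2 of 10 genes rose, beside 8.42% of all genes, and both encode very large proteins. Cenpf, a large coiled-coil protein that reaches kinetochores in G2 and mitosis, stood at 312, 354, 153 and 113 CPM in Glut1 transgenic Tnnt2low, against 76.5, 58.9, 84.8 and 62.6 CPM in Glut1 transgenic Tnnt2high libraries. The lowest Tnnt2low library lay above the highest Tnnt2high library, and the mean rise was 3.29-fold, with a log2 fold change of 1.72 ± 0.40 and an adjusted p of 0.00995. Cenpe, the kinesin that carries chromosomes to the spindle equator, had 72.8, 69.1, 32 and 37.6 CPM in Glut1 transgenic Tnnt2low, against 22.4, 16.7, 18.6 and 15.7 CPM in Glut1 transgenic Tnnt2high libraries. These groups did not overlap either, and the rise was 2.88-fold with a log2 fold change of 1.53 ± 0.27 and an adjusted p of 0.00337. In this comparison 12 of the 42 genes were higher without overlap and 0 lower, beside 11.2% and 10.9% of all genes. For Cenpf and Cenpe alike the exact two-sided permutation test over 4 and 4 libraries gave p = 0.0286, the smallest it allows. Every gene without overlap reaches this value, and the test shuffled libraries without keeping the pairs of a heart. Cenpe was named for the smallest p of its role, so its value is no separate support. Zwint, the scaffold that joins the Knl1 branch to the Rod, Zw10 and Zwilch complex, was measured at 83.7, 81.9, 74.1 and 68.9 CPM in Glut1 transgenic Tnnt2low, against 105, 105, 65.5 and 83.3 CPM in Glut1 transgenic Tnnt2high libraries. It did not pass the test and was lower in the Tnnt2low library of 3 of the 4 hearts, with a log2 fold change of -0.22 ± 0.15 and an adjusted p of 0.372. Ska1, a subunit of the complex that tracks microtubule ends, had 10.7, 10.8, 6.22 and 4.99 CPM in Glut1 transgenic Tnnt2low, against 8.68, 11, 18.1 and 1.9 CPM in Glut1 transgenic Tnnt2high libraries. Tnnt2high replicate 3 was its highest library and Tnnt2high replicate 4 its lowest, with a log2 fold change of -0.27 ± 0.53 and an adjusted p of 0.779.

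The Ndc80 complex, the microtubule-binding core, has 4 subunits that work as a unit, and none of them passed the test. Per kilobase of transcript, Spc25 had 26.6, Spc24 10.9, Nuf2 9.95 and Ndc80 7.28 CPM over the 12 libraries, a level and not a difference. Log2 fold changes were 0.86 for Spc25 (adjusted p = 0.0548), 0.80 for Ndc80 (0.285), 0.75 for Nuf2 (0.197) and 0.27 for Spc24 (0.583), all from edgeR. Spc25 had 68.7, 70.0, 30.8 and 35.3 CPM in Glut1 transgenic Tnnt2low, against 33.1, 28.8, 35.2 and 15.9 CPM in Glut1 transgenic Tnnt2high libraries. Heart 3 was the only heart whose Tnnt2low library was the lower of its pair. Spc25 passed with the heart as a block (log2 0.83, adjusted p = 0.0227 from edgeR), without the filter on low counts (0.0118) and with DESeq2 (0.0209). Ndc80 and Nuf2 were both lowest in Tnnt2low of heart 4 among the Tnnt2low libraries, at 4.35 CPM and 11.4 CPM. Of the Mis12 complex, Dsn1 had a log2 fold change of 0.77 (adjusted p = 0.104) and Mis12 one of 0.89 (0.176).

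Among the spindle checkpoint genes 1 of 6 rose, a count near the 8.42% of all genes. Bub1b encodes BubR1, which holds Cdc20 inactive as part of the mitotic checkpoint complex. Its level was 82.6, 75.7, 53.3 and 56.4 CPM in Glut1 transgenic Tnnt2low, against 27.4, 28.8, 45.6 and 29.2 CPM in Glut1 transgenic Tnnt2high libraries. The lowest Tnnt2low library, 53.3 CPM, was above the highest Tnnt2high library, 45.6 CPM, with a log2 fold change of 1.03 ± 0.23 and an adjusted p of 0.00758. Bub3, its partner on the kinetochore, had 22.7, 34.5, 24.5 and 16.6 CPM in Glut1 transgenic Tnnt2low, against 33.7, 32, 24.3 and 23.5 CPM in Glut1 transgenic Tnnt2high libraries. Bub3 did not pass the test, with a log2 fold change of -0.21 ± 0.23 and an adjusted p of 0.594 and overlapping groups. Mad2l1, which encodes the MAD2 that closes around Cdc20, stood at 21.2, 16.8, 12.3 and 11.6 CPM in Glut1 transgenic Tnnt2low, against 16.3, 13.4, 6.2 and 13.8 CPM in Glut1 transgenic Tnnt2high libraries. Its Tnnt2low library was the higher in hearts 1 to 3 and the lower in heart 4, with a log2 fold change of 0.32 ± 0.36 and an adjusted p of 0.594. Ttk, the kinase that starts checkpoint signalling, did not overlap between the populations but missed the threshold (log2 1.01, adjusted p = 0.0546). Bub1 (log2 1.12, 0.0919) and Cdc20, the target of the checkpoint (log2 0.60, 0.217), missed it as well. DESeq2 called Ttk and Bub1 (adjusted p = 0.0434 and 0.0365), and edgeR without the filter on low counts called Bub1 (adjusted p = 0.0247).

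Of the 3 mitotic kinases 2 rose, beside 8.42% of all genes. Plk1, the polo-like kinase that acts at centrosomes and kinetochores, stood at 27.1, 34.2, 14.7 and 15.5 CPM in Glut1 transgenic Tnnt2low, against 11.9, 7.67, 13.1 and 9.49 CPM in Glut1 transgenic Tnnt2high libraries. The groups did not overlap, although Tnnt2low of heart 3 exceeded Tnnt2high of the same heart by only 0.16 on the log2 scale, with a log2 fold change of 1.11 ± 0.30 and an adjusted p of 0.0195. Plk1 shares 19.4% of its 30-base words with other loci, mainly a pseudogene. Nek2, the kinase that separates centrosomes, had 51.4, 45.6, 20.2 and 11.1 CPM in Glut1 transgenic Tnnt2low, against 14.1, 8.49, 13.4 and 10.2 CPM in Glut1 transgenic Tnnt2high libraries. Its Tnnt2low library of heart 4 lay within the Tnnt2high range, with a log2 fold change of 1.47 ± 0.41 and an adjusted p of 0.0255. Aurka, the Aurora kinase of the spindle poles, was measured at 26.7, 28.2, 15.9 and 19.2 CPM in Glut1 transgenic Tnnt2low, against 9.48, 12.9, 21.6 and 12.1 CPM in Glut1 transgenic Tnnt2high libraries. In heart 3 its Tnnt2high library was the higher, and the test gave a log2 fold change of 0.69 ± 0.28 and an adjusted p of 0.104. Without Tnnt2high replicate 3 Aurka passed, with a log2 fold change of 0.97 and an adjusted p of 0.0251 from edgeR. Calls of Plk1 and Nek2 were lost without Tnnt2low replicate 1, Tnnt2low replicate 2 or Tnnt2high replicate 2, with adjusted p of 0.0594, 0.0740 and 0.0627 for Plk1 and 0.0919, 0.0743 and 0.0753 for Nek2, and that of Nek2 also without Tnnt2high replicate 4, with 0.0559.

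All 8 spindle motor genes had a positive log2 fold change, with a median of 1.06, and 2 of them rose, beside 8.42% of all genes. Kif11, the kinesin that slides antiparallel microtubules apart, stood at 95.4, 104, 56 and 18.2 CPM in Glut1 transgenic Tnnt2low, against 25.2, 27.4, 31.5 and 23 CPM in Glut1 transgenic Tnnt2high libraries. In hearts 1 to 3 the Tnnt2low library was the higher, and in heart 4 it was the lower, with a log2 fold change of 1.35 ± 0.41 and an adjusted p of 0.0347. The call of Kif11 was lost on leaving out any of 6 Glut1 transgenic libraries, Tnnt2low replicates 1 and 2 and all 4 Tnnt2high replicates, with adjusted p of 0.0515 to 0.102. Kifc1, the minus-end kinesin that focuses spindle poles, had 22.1, 20.8, 31 and 21.4 CPM in Glut1 transgenic Tnnt2low, against 8.88, 6.57, 9.17 and 3.32 CPM in Glut1 transgenic Tnnt2high libraries. The groups did not overlap, with a 3.39-fold rise and a log2 fold change of 1.76 ± 0.30 and an adjusted p of 0.00257. Kifc1 shares 58.4% of its 30-base words with other loci, most of them Kifc5b, and reads of the pair may have been split. Kif4, the chromosome-arm kinesin, was measured at 58.3, 76.2, 34.4 and 16.6 CPM in Glut1 transgenic Tnnt2low, against 23, 22.2, 19.6 and 16.6 CPM in Glut1 transgenic Tnnt2high libraries. It missed the threshold with a log2 fold change of 1.19 ± 0.42 and an adjusted p of 0.0679, and passed it with the heart as a block (log2 1.01, adjusted p = 0.0158 from edgeR) and without the filter on low counts (adjusted p = 0.00798). Kif18a, which dampens chromosome movement, was low at 6.02, 5.16, 1.9 and 0.384 CPM in Glut1 transgenic Tnnt2low, against 2.02, 3.56, 2.48 and 1.19 CPM in Glut1 transgenic Tnnt2high libraries, with a log2 fold change of 0.56 ± 0.68 and an adjusted p of 0.627. The remaining motors Kif15, Kif18b, Kif2c and Kif22 had log2 fold changes of 0.73 to 1.17. Of these, Kif22 and Kif2c passed with the heart as a block (adjusted p = 0.0229 and 0.0498 from edgeR), and Kif15 with DESeq2 (adjusted p = 0.0493).

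Of the spindle-associated genes 6 of 7 rose, beside 8.42% of all genes, with a median log2 fold change of 0.95. Numa1, which anchors microtubules at the poles, had the highest level per kilobase of the 42 genes, and stood at 290.2, 252, 234 and 289 CPM in Glut1 transgenic Tnnt2low, against 172, 166, 228 and 179 CPM in Glut1 transgenic Tnnt2high libraries. The rise was small and the groups did not overlap, with a log2 fold change of 0.52 ± 0.14 and an adjusted p of 0.0189. Ckap5, the microtubule polymerase ch-TOG, had 205, 225, 165 and 173 CPM in Glut1 transgenic Tnnt2low, against 80.3, 102, 126 and 108 CPM in Glut1 transgenic Tnnt2high libraries. All 4 Tnnt2low libraries lay above all 4 Tnnt2high libraries, with a log2 fold change of 0.88 ± 0.15 and an adjusted p of 0.00261. Nusap1, which bundles microtubules near chromatin, was the exception, at 46.1, 38.8, 18.7 and 13.4 CPM in Glut1 transgenic Tnnt2low, against 16.1, 15.9, 21.6 and 11.2 CPM in Glut1 transgenic Tnnt2high libraries. Its values in hearts 3 and 4 overlapped those of the Tnnt2high libraries, with a log2 fold change of 0.86 ± 0.34 and an adjusted p of 0.0995. Nusap1 passed without the filter on low counts (adjusted p = 0.0399 from edgeR) and without Tnnt2low replicate 4 (log2 1.09, adjusted p = 0.0269).

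Aspm, Tpx2, Hmmr and Ckap2 completed this group, and were named after their values were seen. Aspm, the pole protein whose human gene is mutated in microcephaly, stood at 66.4, 75.1, 53.2 and 30.7 CPM in Glut1 transgenic Tnnt2low, against 14.7, 15.6, 23.6 and 19.9 CPM in Glut1 transgenic Tnnt2high libraries. This was a 3.06-fold rise, with a log2 fold change of 1.61 ± 0.28 and an adjusted p of 0.00278. Tpx2, the activator of Aurora A, had 51.1, 69, 35.9 and 36.5 CPM in Glut1 transgenic Tnnt2low, against 18, 23, 24.1 and 30.4 CPM in Glut1 transgenic Tnnt2high libraries. Its groups did not overlap, with a log2 fold change of 1.02 ± 0.27 and an adjusted p of 0.0206. Hmmr, a partner of Tpx2 at the poles, was measured at 97.5, 123, 48.7 and 25.6 CPM in Glut1 transgenic Tnnt2low, against 36.7, 29.3, 25.3 and 21.1 CPM in Glut1 transgenic Tnnt2high libraries. Heart 4 had 25.6 CPM in Tnnt2low, within the Tnnt2high range, with a log2 fold change of 1.39 ± 0.43 and an adjusted p of 0.0398. Ckap2, a microtubule stabiliser, had 33.1, 33.7, 18.9 and 16.8 CPM in Glut1 transgenic Tnnt2low, against 15.7, 15.1, 13.9 and 8.3 CPM in Glut1 transgenic Tnnt2high libraries. These groups did not overlap, with a log2 fold change of 0.95 ± 0.29 and an adjusted p of 0.0364. The calls of Tpx2, Hmmr, Ckap2 and Numa1 were each lost without Tnnt2low replicate 1, Tnnt2high replicate 1 or Tnnt2high replicate 2. The first 3 were also lost without Tnnt2low replicate 2, Hmmr and Ckap2 without Tnnt2high replicate 3 or 4, and Numa1 without Tnnt2low replicate 4. Adjusted p in these fits was 0.0518 to 0.0726 for Tpx2, 0.0585 to 0.129 for Hmmr, 0.0555 to 0.113 for Ckap2 and 0.0506 to 0.0625 for Numa1.

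**Figure D2:**
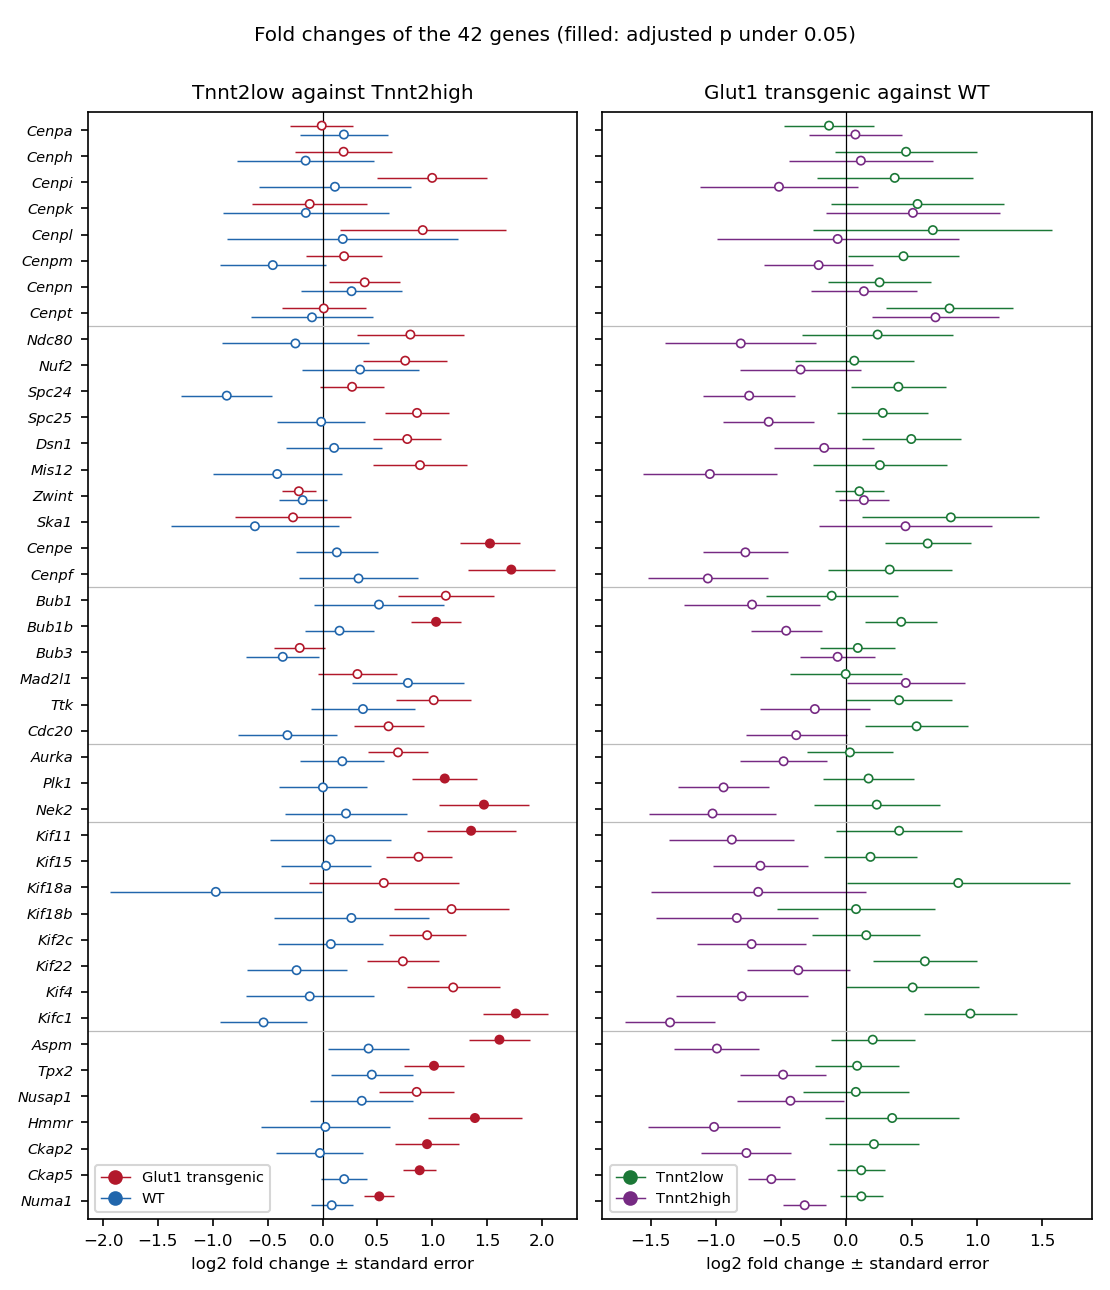
Log2 fold change (horizontal axis) of each of the 42 genes, with bars for the standard error and filled points for an adjusted p under 0.05 from edgeR. The left panel sets Tnnt2low against Tnnt2high cells in Glut1 transgenic (red) and WT hearts (blue), where 13 red and 0 blue points are filled, and the right panel sets Glut1 transgenic against WT hearts in Tnnt2low (green) and Tnnt2high cells (purple), where none is filled.

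The libraries of each heart were then compared with each other. In heart 1, 38 of 42 genes were higher in the Tnnt2low library, with a median log2 difference of 0.97. Heart 2 had 39 with a median of 1.15, heart 3 had 32 with a median of 0.41, and heart 4 had 28 with a median of 0.38. Over all genes tested the share was 49.6% to 52.0% in these 4 hearts and the median at most 0.03. In all 4 hearts 19 of the 42 genes were higher in Tnnt2low cells, as were 20.3% of all genes, and 0 of the 42 were lower in all 4. In hearts 1 and 2 every motor and every spindle-associated gene was higher in Tnnt2low cells. In heart 4 the checkpoint genes split, with 2 of 6 higher and a median of -0.17, while 7 of 7 spindle-associated genes were higher with a median of 0.62. Kifc1 stood apart from the order of the hearts, with its largest difference, 2.58 on the log2 scale, in heart 4. Differences over 2-fold in favour of Tnnt2low cells were seen for 21, 26, 6 and 7 of the 42 genes in hearts 1 to 4, beside 7.93%, 8.51%, 12.7% and 8.21% of all genes, so the count in heart 3 was near that of all genes. Over 2-fold lower were 0, 0, 2 and 1 of the 42.

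**Figure D3:**
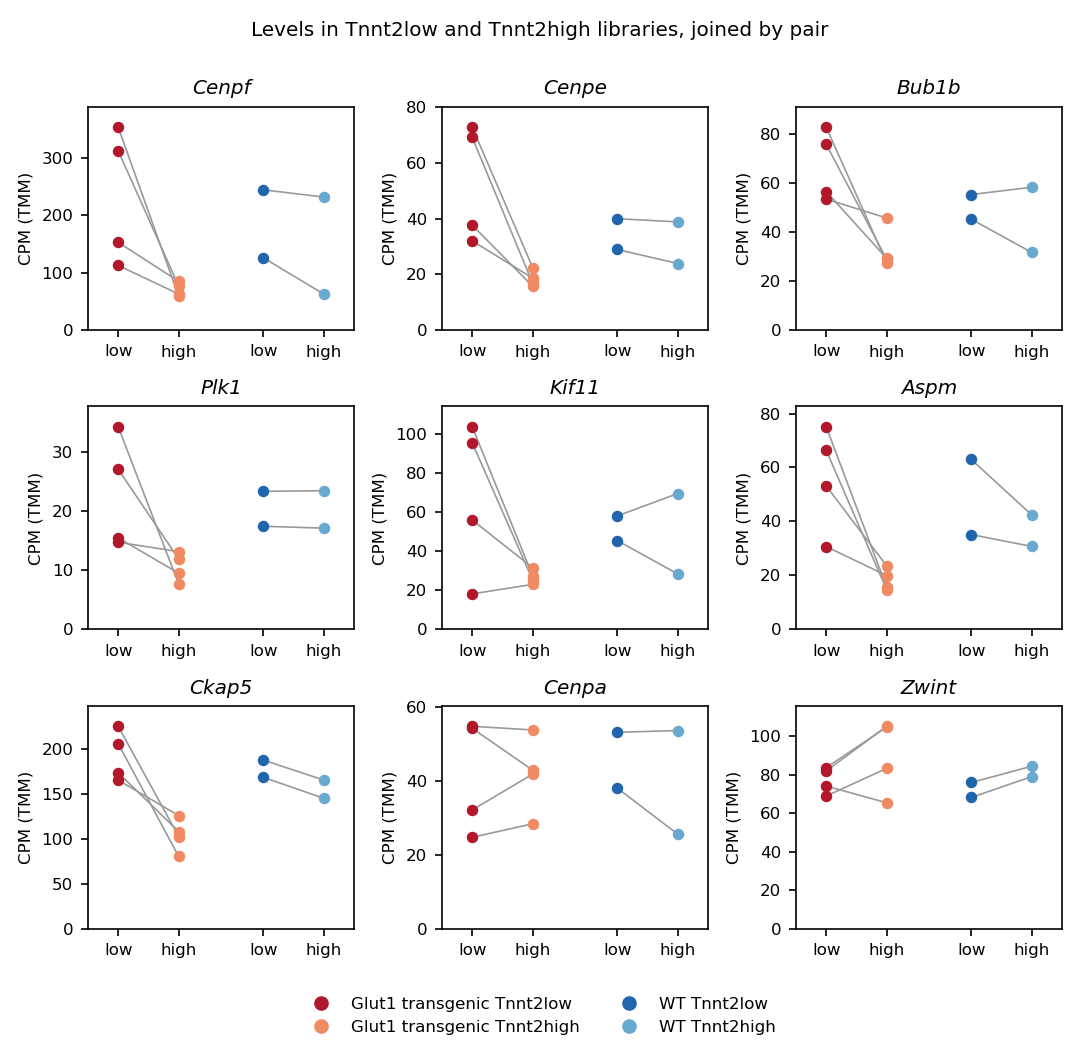
Level of 9 genes in CPM (vertical axis, from 0) in Tnnt2low and Tnnt2high libraries, with grey lines joining the libraries of a pair, Glut1 transgenic hearts in red tones on the left and WT pairs in blue on the right. Aspm and Cenpe are higher in the Tnnt2low library of all 4 Glut1 transgenic hearts, Kif11 in that of 3, Cenpa of 2 and Zwint of 1.

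Transcript length moved with this comparison across all genes. Among genes under 2500 bases 0.402% rose and the median log2 fold change was -0.40, among those from 2500 to under 4000 bases 2.93% rose with a median of 0.01, and among those of 4000 bases or more 20.6% rose with a median of 0.34. The kinetochore and spindle genes were higher than these medians in each class. Their medians were 0.60 for the 15 short genes, of which 2 rose, 0.95 for the 16 of middle length, of which 4 rose, and 1.02 for the 11 long ones, of which 7 rose. Genes of the 42 that rose had a median length of 4365 bases and a median mean level of 39.2 CPM, and the others 2636 bases and 11.3 CPM. With an offset for transcript length and GC content, 4 of the 42 rose, Cenpe, Kifc1, Aspm and Spc25, and 0.424% of all genes rose, while the median over the 42 was 0.92. Reads with no gene feature, given above, also differed between these groups, and their part in the result was not tested.

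**Figure D4:**
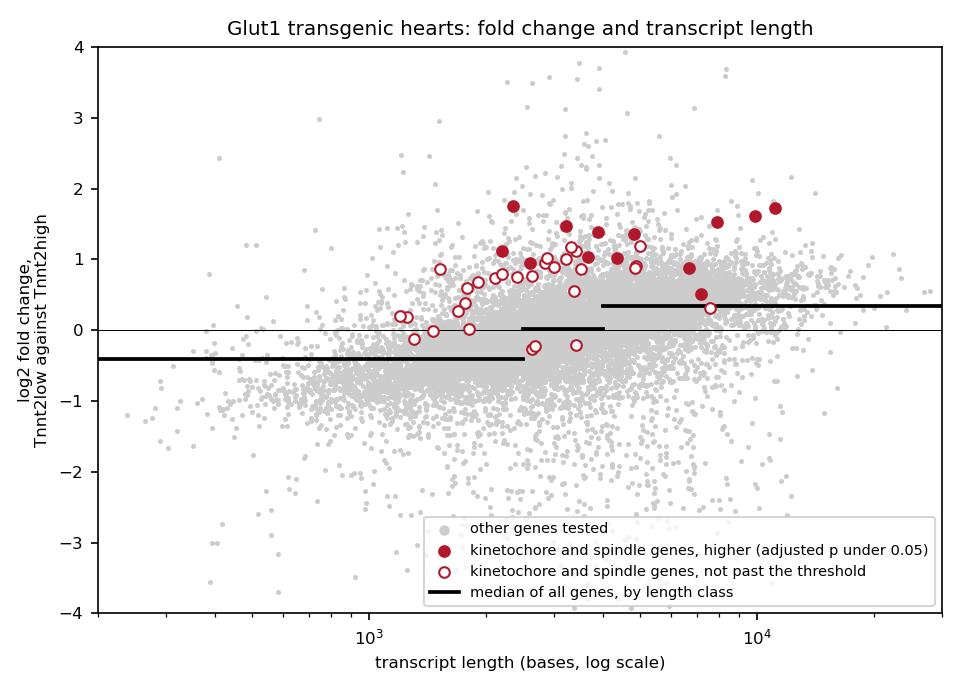
Log2 fold change of Tnnt2low against Tnnt2high cells in Glut1 transgenic hearts (vertical axis) by transcript length in bases (horizontal axis, log scale), for all genes tested (grey), the 13 kinetochore and spindle genes that rose (filled red) and the other 29 (open red), with black bars for the median of all genes in 3 length classes. The bars stand at -0.40, 0.01 and 0.34, most red points lie above them, and 97 grey points lie outside the axes.

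Fibroblast and matrix markers fell in the same comparison. They did so for 5 of 7 genes, beside 8.33% of all genes, and their summed level was 45.3 to 99.8 CPM in Glut1 transgenic Tnnt2low and 147 to 892 CPM in Glut1 transgenic Tnnt2high libraries. Of the endothelial markers 0 of 7 passed the test, 5 were lower at an unadjusted p under 0.05, beside 15.3% of all genes, and the sum was 8.22 to 70.0 CPM in Tnnt2low and 24.4 to 231 CPM in Tnnt2high libraries of these hearts. Of the 6 smooth muscle and pericyte markers 5 were tested, with 1 higher, Cspg4, and 1 lower, Pdgfrb, beside 8.42% and 8.33% of all genes, and sums of 902 to 1125 CPM in Tnnt2low and 1045 to 1611 CPM in Tnnt2high libraries, mostly Acta2. Leukocyte markers summed to 1.63 to 4.57 CPM in Tnnt2low and 0 to 9.28 CPM in Tnnt2high libraries. Erythroid markers summed to 0.0956 to 2.56 CPM in Tnnt2low and 0 to 2.42 CPM in Tnnt2high libraries. In WT libraries the erythroid sum was 18.6 and 1.35 CPM in Tnnt2low and 3.06 and 2.42 CPM in Tnnt2high cells. Epicardium markers summed to 0.287 to 3.97 CPM in Tnnt2low and 0 to 3.56 CPM in Tnnt2high libraries. The part of these cells in the kinetochore and spindle result was not tested.

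In WT hearts no kinetochore or spindle gene passed the test between the populations, and 0% of all genes did. The median log2 fold change of the 42 was 0.07, with 25 positive and 17 negative, and 0 had an unadjusted p under 0.05, against 1.2% of all genes higher and 1.91% lower. DESeq2 also called 0 of the 42. Cenpf stood at 126 and 245 CPM in WT Tnnt2low, against 62.5 and 232 CPM in WT Tnnt2high libraries. Replicate 2 was high in both populations, and the log2 fold change was 0.33 ± 0.54. Ckap5 had 168 and 187 CPM in WT Tnnt2low, against 145 and 165 CPM in WT Tnnt2high libraries. It was 1 of 2 genes, with Ttk, whose Tnnt2low libraries both lay above both Tnnt2high libraries, with a log2 fold change of 0.20 ± 0.21. Such separation upwards was seen for 15.3% of all genes, and downwards for 14.9%. Downwards it was seen for 5 of the 42, Cenpm, Spc24, Zwint, Kif18a and Kifc1. Spc24, of the Ndc80 complex, had the smallest p in WT hearts and stood at 9.53 and 19.6 CPM in WT Tnnt2low, against 32 and 21.5 CPM in WT Tnnt2high libraries. Its log2 fold change was -0.87 ± 0.41, with an adjusted p of 1 from edgeR. Kifc1 was measured at 9.38 and 15.3 CPM in WT Tnnt2low, against 17.3 and 18.4 CPM in WT Tnnt2high libraries. That is the reverse of its order in Glut1 transgenic hearts, with a log2 fold change of -0.54 ± 0.40. In WT pair 1, 27 of 42 genes were higher in the Tnnt2low library with a median of 0.15, and in pair 2, 18 of 42 with a median of -0.01. With 2 libraries per population the smallest permutation p is 0.333, and the median over the 42 depended on single libraries. It was 0.42 without WT Tnnt2high replicate 2, 0.29 without Tnnt2low replicate 1, and -0.23 without Tnnt2low replicate 2 or Tnnt2high replicate 1.

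Whether the populations differed more in Glut1 transgenic than in WT hearts was tested as an interaction. None of the 42 passed, nor did any of the 12252 genes, while the median difference of the fold changes was 0.86 on the log2 scale and 7 of the 42 were higher at an unadjusted p under 0.05, with 2.32% of all genes higher and 2.2% lower. Kifc1 had the largest difference, 2.30 ± 0.50, with an adjusted p of 0.698 from edgeR and 0.0397 from DESeq2, which called 1 of the 42. Of 16895 genes DESeq2 called 0.0118% higher and 0.0178% lower in this test. For Cenpe the difference was 1.40 ± 0.46 and for Ckap5 0.69 ± 0.26, both with an adjusted p of 0.961 from edgeR. Without WT Tnnt2high replicate 2 the median difference was 0.30, against 0.60 to 1.19 on leaving out any other library. A difference between the genotypes was not shown for any of the 42 genes by edgeR.

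Glut1 transgenic and WT hearts were also compared within each population, using the same libraries as above. In Tnnt2low cells 0 of the 42 genes passed, with 0% of all genes rising and 0.00816% falling. Their median log2 fold change was 0.27, with 39 positive, and it was 0.06 on leaving out WT Tnnt2low replicate 1 and 0.58 on leaving out its replicate 2. Kifc1 alone of the 42 was under an unadjusted p of 0.05 (0.93% of all genes were higher at that level), at 22.1, 20.8, 31 and 21.4 CPM in Glut1 transgenic, against 9.38 and 15.3 CPM in WT Tnnt2low libraries. Its groups did not overlap, with a log2 fold change of 0.95 ± 0.36 and an adjusted p of 1 from edgeR. Cenpt, an inner kinetochore protein that recruits the Ndc80 complex, was the other gene without overlap, with 6.12, 10.8, 7.36 and 9.85 CPM in Glut1 transgenic, against 5.36 and 4.49 CPM in WT Tnnt2low libraries and a log2 fold change of 0.79 ± 0.48. Cenpe, whose values overlapped, had a log2 fold change of 0.62 ± 0.33. Non-overlapping higher values were found for 5.39% of all genes.

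In Tnnt2high cells 0 of the 42 kinetochore and spindle genes passed between the genotypes, as did 0% of all genes. The median log2 fold change was -0.50, with 34 of 42 negative and 7 lower at an unadjusted p under 0.05, where 3.13% of all genes were lower and 2.17% higher. Values did not overlap for 10 of the 42, all lower in Glut1 transgenic hearts, with 6.12% of all genes lower in this way and 5.9% higher. Kifc1 had 8.88, 6.57, 9.17 and 3.32 CPM in Glut1 transgenic, against 17.3 and 18.4 CPM in WT Tnnt2high libraries. All 4 transgenic values were under both WT values, with a log2 fold change of -1.35 ± 0.35 and an adjusted p of 0.899 from edgeR. Ckap5 stood at 80.3, 102, 126 and 108 CPM in Glut1 transgenic, against 145 and 165 CPM in WT Tnnt2high libraries, with a log2 fold change of -0.57 ± 0.18 and an adjusted p of 0.899. Aspm had 14.7, 15.6, 23.6 and 19.9 CPM in Glut1 transgenic, against 30.8 and 42.4 CPM in WT Tnnt2high libraries, with a log2 fold change of -0.99 ± 0.32 and an adjusted p of 0.899. The 8 inner kinetochore genes had a median of 0.09. WT Tnnt2high replicate 2 had the higher sum of the WT Tnnt2high pair, and without it the median over the 42 genes was -0.10. The exact permutation test over 4 and 2 libraries cannot go below p = 0.0667.

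Per kilobase of the longest coding transcript, levels over the 12 libraries spanned from 0.684 CPM for Cenpl to 32.1 CPM for Numa1. Next to Numa1 came Zwint at 30.4, Cenpa at 28.7, Spc25 at 26.6 and Ckap5 at 23.1 CPM per kilobase, then Cenpf at 14.1. Next to Cenpl came Kif18a at 0.837 and Mad2l1 at 1.77 CPM per kilobase. The order depends on the transcript chosen, which was 7557 bases long for Mad2l1. In Glut1 transgenic Tnnt2low libraries Numa1 and Zwint stood at 37.1 and 28.8 CPM per kilobase, and in Tnnt2high libraries at 25.9 and 33.5, so their order turned round between these groups. Differences between neighbours in this order were not tested.

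Other genes of the same machinery, from lists that do not contain the 42, were counted in the same way. Of 28 other kinetochore and checkpoint genes 5 rose and 0 fell in Tnnt2low against Tnnt2high cells of Glut1 transgenic hearts. Of all genes 8.42% rose and 8.33% fell, and the median log2 fold change of the 28 was 0.33. Knstrn, a partner of the spindle at kinetochores, averaged 42.1 ± 15.1 CPM in Tnnt2low and 16.8 ± 3.62 CPM in Tnnt2high libraries (SD, n = 4 each; log2 fold change 1.32 ± 0.28, adjusted p = 0.00637 from edgeR). Sgol2a, a shugoshin that protects centromeric cohesin in mouse germ cells, averaged 36.2 ± 15.4 CPM in Tnnt2low and 16.6 ± 2.06 CPM in Tnnt2high libraries (log2 fold change 1.12 ± 0.32, adjusted p = 0.0283). Zwilch, of the complex that brings dynein to kinetochores, rose as well (log2 fold change 1.20 ± 0.35, adjusted p = 0.0322). Of 39 other spindle and mitotic exit genes 9 rose and 0 fell, beside the same shares of all genes, with a median of 0.72. Neither count takes transcript length into account. Kif20b, a kinesin of the midzone, averaged 24.7 ± 2.56 CPM in Tnnt2low and 8.72 ± 1.33 CPM in Tnnt2high libraries (log2 fold change 1.49 ± 0.24, adjusted p = 0.00215). Incenp, the scaffold of the chromosomal passenger complex (log2 fold change 1.16 ± 0.23, adjusted p = 0.00457), and Ckap2l, a paralog of Ckap2 (log2 fold change 1.47 ± 0.32, adjusted p = 0.00738), were the others of smallest p.

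The building blocks of microtubules and the S-phase genes were counted beside them. Of 12 tubulin genes 11 were tested, 0 rose and 1 fell, with a median of -0.41, and the share that fell was near the 8.33% of all genes. The 1 that fell, Tuba4a, averaged 186 ± 31.2 CPM in Tnnt2low and 275 ± 8.86 CPM in Tnnt2high libraries of Glut1 transgenic hearts (log2 fold change -0.57 ± 0.16, adjusted p = 0.0248 from edgeR). Of 36 S-phase genes 3 rose and 0 fell, with a median of -0.09, and that share was near the 8.42% of all genes that rose. The 3 were Uhrf1, which helps to maintain DNA methylation (log2 fold change 0.83 ± 0.21, adjusted p = 0.017), and the ribonucleotide reductase subunits Rrm2 (log2 fold change 0.93 ± 0.27, adjusted p = 0.0304) and Rrm1 (log2 fold change 0.53 ± 0.17, adjusted p = 0.0482). The tubulin and S-phase counts and medians take no account of transcript length either. In WT hearts 0 genes of these 4 lists passed between the populations.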

How the data were processed

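Each library came with a deposited table of raw read counts by gene. According to their methods, the authors made libraries with an Illumina mRNA kit, sequenced single-end reads, trimmed bases of low quality, mapped with HISAT2 to mm10 and counted with HTSeq over the union of exons. Their notes also name FastQC and DESeq2. Strand use and tool versions were not given in the sources used here. Extracts are described as heart tissue in the labels and as sorted cells in the methods, which were followed.

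The 24421 genes of each file were kept, and 5 totals naming no gene were left out. Of these, reads with no gene feature made up 28.8% to 46.5% of all records. Counts were fitted with edgeR 4.0.16 in R 4.3.3 (TMM, filterByExpr on 4 groups, quasi-likelihood test, 12 libraries in 1 fit). The largest pairwise chi-square per gene between replicates was 26.5 and the smallest 13.4, so none was a duplicate. The largest was between the WT Tnnt2high replicates, and the WT Tnnt2low replicates gave 24.7. Replicates were paired by the heart in the labels, and deviations of the pairs correlated at 0.107 to 0.226 in Glut1 transgenic hearts. Alternatives were DESeq2 1.42.0, its size factors, no filter, robust estimation, a fold over 1.5, only the groups compared, an offset for length and GC (loess, span 0.3), the heart as a block, and left-out libraries. The fit was tested on simulated data. Length and sequence sharing came from GENCODE vM21, with 24053 genes matched, 677 of them through an older symbol. Ndc80, Cdc20, Plk1, Kif4, Kifc1 and Ckap2 shared at least 10% of their 30-base words with other loci. Genes named in full were, in each role, the 2 of highest mean CPM and those of smallest and largest p, and in other lists up to 3 genes per direction of smallest p. The 42 genes, roles and lists were chosen with earlier results of these data known. Figures used Python 3.11.15, pandas 2.3.3 and matplotlib 3.10.9.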

Additional observations from a re-analysis of the deposited data

Results flagged for a closer look

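Over 84 groups of 4 libraries, 1 library stood far from the other 3 in 3 cases, where chance gives about 1 in 20 groups. Cenpk was at 6.88 CPM in Glut1 transgenic Tnnt2low replicate 1, with the others at 3.17 to 3.70 CPM. Bub1b was at 45.6 CPM in Glut1 transgenic Tnnt2high replicate 3, with the others at 27.4 to 29.2 CPM. Kifc1 was at 31.0 CPM in Glut1 transgenic Tnnt2low replicate 3, with the others at 20.8 to 22.1 CPM.

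Kifc1 and Kif22 were higher in the Tnnt2low library of all 4 Glut1 transgenic hearts and lower in that of both WT pairs. The mean within-pair log2 difference of Glut1 transgenic hearts exceeded that of WT pairs by 2.37 for Kifc1 and by 1.04 for Kif22. The interaction in edgeR gave an adjusted p of 0.698 for Kifc1 and 0.961 for Kif22.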

How the results depend on the processing

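The 13 genes that rose in Tnnt2low cells of Glut1 transgenic hearts numbered 10 to 17 with DESeq2 size factors, DESeq2, no filter, robust estimation, only the groups compared, a fold over 1.5 or without genes of shared sequence. They numbered 4 with the length and GC offset, 6 to 19 on leaving out 1 library, and 0 without the hearts that read Ddx3y or without Glut1 transgenic hearts 1 and 2, where 4 libraries of this genotype remain. The cause was not tested. Among all genes tested, 7.92% rose with DESeq2 size factors, 11.1% with DESeq2 and 6.34% with no filter. The share was 9.08% with robust estimation, 9.13% with only the groups compared and 0.424% with the offset. It was 4.91% to 8.45% on leaving out 1 library, and 0% without the hearts that read Ddx3y or without hearts 1 and 2. With the replicate block, pairing libraries by heart, 17 of the 42 rose, beside 9.83% of all genes. With block and offset together 11 rose, beside 1.59%. None of the 42 gained a call from the block in WT hearts or in the interaction. The genotypes could not be compared within a population with the block, since each pair lies within 1 genotype. In WT hearts, and between genotypes in Tnnt2low or Tnnt2high cells, the count was 0 in every alternative run. For the interaction it was 0 in all but DESeq2, where it was 1, Kifc1, beside 0.0118% of all genes higher and 0.0178% lower. Among the genes named in full, direction turned only for genes that did not pass. Of the other genes, Cenpt moved from 0.011 to -0.0037 with DESeq2. Cenpk moved from -0.12 to 0.39 with the offset and 0.50 with block and offset, and neither gene passed. Cenpa, at -0.0076, moved to 0.00275 without the filter, 0.36 with the offset, 0.33 with block and offset, and between -0.17 and 0.17 on leaving out 1 library, positive without Tnnt2low replicates 3 (0.09) and 4 (0.17) and Tnnt2high replicates 1 (0.14) and 2 (0.0050). Cenpm ranged from -0.030, without Tnnt2low replicate 2, to 0.44 on leaving out 1 library. Ska1 was at 0.011 with block and offset and from -0.61 to 0.20, the highest without Tnnt2high replicate 3, on leaving out 1 library. Without hearts 1 and 2, chosen after seeing the data, Kif18a was at -0.67 and Nusap1 at -0.026. Cenpl and Kif18a, the lowest genes per kilobase, had standard errors of 0.75 and 0.68 on the log2 scale in Glut1 transgenic hearts.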
